A study of Mus musculus with 2 samples.

Results

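Of the 15953 genes listed for mouse neural stem cells, 10 encode the immediate early transcription factors of the AP-1 and EGR families. The members were taken by symbol: the FOS subfamily (Fos, Fosb, Fosl1 and Fosl2) and the JUN subfamily (Jun, Junb and Jund), which together make AP-1, and the EGR factors Egr1, Egr2 and Egr3. All 10 were listed. All 10 also reached 1 CPM (1 read per 1000000 reads counted) in at least 1 library, Fosb only just and only in the cKO library, with 19 reads. The study read gene expression by RNA sequencing in 1 library of wild-type neural stem cells and 1 library of cells from a Hikeshi conditional knockout (cKO). Hikeshi carries chaperones of the HSP70 class into the nucleus, and the study asks how its loss bears on proliferation and differentiation. Both cultures were grown in suspension, per the labels. The Cre driver, the deleted exons, the age of the mice and how many animals stand behind each library are not stated in the labels or the design text. With 1 library per group there is no replicate spread and no test between genotypes. Every interval below is a 95% counting interval, which compares these libraries only. Since PCR copies of a molecule were not told apart, it may be narrower than the true counting error.

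AP-1 is a dimer of basic leucine zipper proteins. JUN proteins pair with one another or with FOS proteins, whereas FOS proteins need a JUN partner to bind DNA. The site of the dimer was searched for below with the loose pattern TGANTCA, where N is any base. The EGR proteins bind DNA through zinc fingers, at GC-rich sites of the form GCGNGGGCG. Many of these genes are switched on within minutes of a growth factor, a depolarization or a stress, without new protein synthesis, by ERK and other MAP kinases acting on SRF with its TCF partners and on CREB. In neural stem cells kept in growth factors they are read as a sign of that signalling.

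The libraries held 18912683 reads (cKO) and 18839079 reads (wild type), with 15239 and 15326 genes detected. Hikeshi itself had 640 reads in the cKO library and 718 in the wild-type library (ratio 0.888, 0.797 to 0.989). Counts over a whole gene can miss a deletion of some exons, so this value does not check the genotype label. The progenitor markers Sox2 and Nes were abundant in both libraries, with Sox2 at 7633 and 7659 reads and Nes at 14759 and 10717. As a list such markers were not alike, however. Of 14 neural stem cell markers 1 (7.14%) was at least 1.5-fold higher in the cKO library and 5 (35.7%) lower. Over all genes at 1 CPM or more in at least 1 library these shares were 4.22% and 10.2%. Hes5 was farthest down, with 317 reads in the cKO library and 810 in the wild-type library. The summed reads of 4 Y-linked genes were 2931 in the cKO library and 1 in the wild-type library. Genotype label and Y-linked expression therefore differed together, and for every result below they cannot be told apart.

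RefSeq promoter windows (GRCm38.p6) were used for 7 of the 10 genes, all but Fosl1, Egr1 and Egr3, with 11 transcription starts in all, 5 of them for Egr2. The 4 shown hold the letters searched for and belong to Fos, Junb and Egr2, which were lower in the cKO library by similar folds, and to Jun, the most abundant member. None of these 4 genes was as much as 1.5-fold apart. Each is the 250 bases before a start, 5′ to 3′ in the direction of the gene, with the matches in capitals. That of Fos lies on the plus strand at chr12:85473640-85473889, that of Junb on the minus strand at chr8:84978749-84978998, that of Egr2 on the plus strand at chr10:67537619-67537868 and that of Jun on the minus strand at chr4:95052223-95052472.
Fos: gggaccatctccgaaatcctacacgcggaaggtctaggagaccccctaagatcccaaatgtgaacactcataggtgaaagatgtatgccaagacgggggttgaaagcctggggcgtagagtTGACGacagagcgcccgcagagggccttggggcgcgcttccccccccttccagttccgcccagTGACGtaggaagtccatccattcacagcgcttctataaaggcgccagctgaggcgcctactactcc
Junb: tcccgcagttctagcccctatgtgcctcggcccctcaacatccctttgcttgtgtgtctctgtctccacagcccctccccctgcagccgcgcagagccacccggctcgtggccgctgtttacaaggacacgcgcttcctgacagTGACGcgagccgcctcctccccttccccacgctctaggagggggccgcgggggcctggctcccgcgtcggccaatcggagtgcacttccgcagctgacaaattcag
Egr2: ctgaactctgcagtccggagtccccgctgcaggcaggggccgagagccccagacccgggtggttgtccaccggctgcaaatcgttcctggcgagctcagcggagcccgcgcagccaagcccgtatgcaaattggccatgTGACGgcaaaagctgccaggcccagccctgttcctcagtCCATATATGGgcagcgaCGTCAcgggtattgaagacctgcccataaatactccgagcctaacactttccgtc
Jun: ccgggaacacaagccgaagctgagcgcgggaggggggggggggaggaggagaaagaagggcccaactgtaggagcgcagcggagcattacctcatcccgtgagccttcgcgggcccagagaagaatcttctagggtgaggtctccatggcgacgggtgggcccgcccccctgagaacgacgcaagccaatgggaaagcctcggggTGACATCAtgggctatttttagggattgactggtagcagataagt
In Fos, Junb and Egr2 the capitals mark TGACG, the core of the site bound by CREB and ATF proteins, which in Egr2 also occurs on the opposite strand as CGTCA. The Fos window held it 129 and 66 bases before the start, and the Junb window 106 bases before. In Egr2 the capitals also mark CCATATATGG, a CArG box (the site of SRF), 72 bases before the start. In Jun they mark TGACATCA, a variant AP-1 site, 45 bases before the start.

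Searched on both strands, TGACG was in windows of 4 of the 7 genes (Fos, Fosb, Junb and Egr2), in 6 of the 11 windows of these 7 genes. The Egr2 windows among the 6 overlap and share the same sites. Over all 32851 windows the share with TGACG was 17.8%. These letters are also part of the full site TGACGTCA, which no window of the 7 genes held and which was in 1.55% of all windows. A CArG box was in 4 of the 5 Egr2 windows, in no window of the other genes and in 1.47% of all windows. Of those Egr2 windows 3 overlap and share the same box, so the count is not of separate sites. The EGR letters GCGNGGGCG were in the windows of Fosb and Fosl2, in both as GCGGGGGCG, and in 4.70% of all windows. TGANTCA was in none of the 7 and in 6.75% of all windows, while TGACATCA, searched for after the other results were seen, was in Jun alone and in 2.93% of all windows. A match shows that the letters are there and does not show that a factor is bound. Only the 250 bases before each start were searched, so a gene without a match may hold the letters elsewhere. Fosl1, Egr1 and Egr3 were not searched.

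As sums of reads, AP-1 and EGR genes differed in direction between the libraries, though single AP-1 genes went both ways. The 7 AP-1 genes had 11428 reads in the cKO library and 10132 in the wild-type library, and were slightly higher in the cKO library as a sum (ratio of CPM 1.12, 1.09 to 1.15). The 3 EGR genes had 1695 reads against 4049 and were 2.40-fold lower in the cKO library (2.27 to 2.54). The ratio of AP-1 to EGR reads was thus 2.69 times as high in the cKO library (2.53 to 2.87), a value that does not depend on how the libraries are scaled. Of the AP-1 genes 4 lay above and 3 below their wild-type level, while all 3 EGR genes lay below it. Among those above was Fosb, with 19 reads against 12 and a ratio interval from 0.727 to 3.56, so its direction was not detectable.

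Much of that size came from the most abundant gene of each class. Without Jun and Egr1 the ratio was 1.65 (1.45 to 1.88). Leaving out Egr1 alone gave 1.79, and leaving out Jun alone gave 2.49. The AP-1 genes other than Jun had 5009 reads against 4812 (ratio 1.04, 0.996 to 1.08), so as a sum they did not differ detectably. Egr2 and Egr3 together had 434 against 688 and were 1.59-fold lower (1.41 to 1.80). With members weighted equally, by the mean log2 difference, AP-1 over EGR was 2.15.

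**Figure D1:**
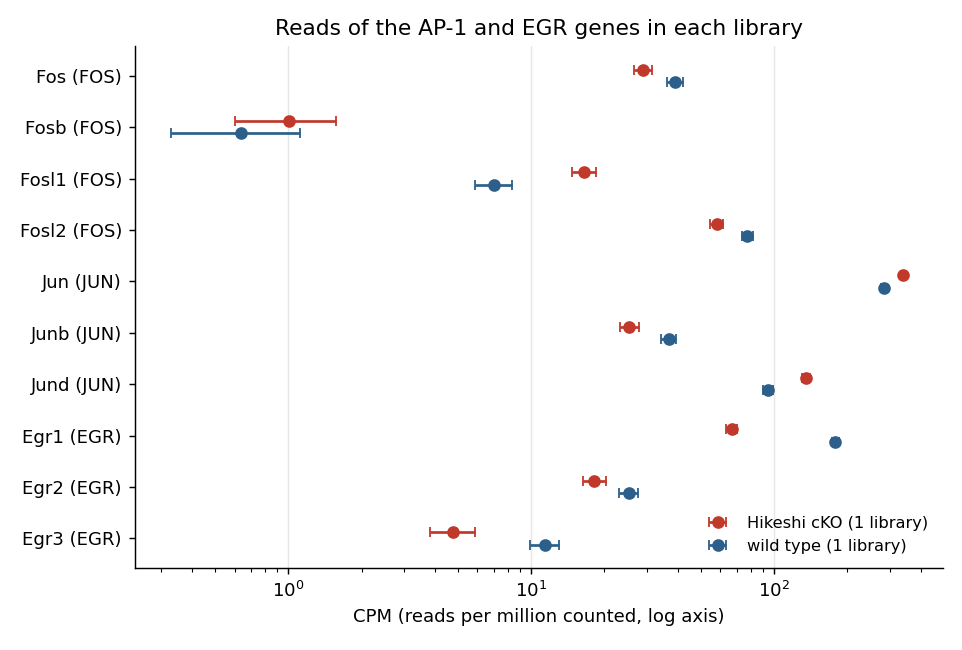
CPM of the 10 genes (log axis) in the Hikeshi cKO library (red) and the wild-type library (blue), with exact Poisson intervals for counting error. All 3 EGR genes lie to the left in the cKO library, Fosl1, Jun and Jund lie to the right, and the intervals of Fosb overlap.

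A gene was counted as apart when it differed by at least 1.5-fold on the scale log2(CPM + 1), cKO over wild type, on which the median of all 12618 kept genes was -0.02. Among the kept genes 4.22% were that much higher and 10.2% that much lower in the cKO library. Of the 10 members 1 was higher (Fosl1) and 2 were lower (Egr1 and Egr3), beside 14.4% of kept genes in either direction. All 3 were at least 2-fold apart as well, which held for 1.25% of kept genes on the higher side, 3.85% on the lower side and 5.1% in all. The other 7 lay within 1.5-fold. Jund and Junb lay closest to the threshold, at 0.51 and -0.52 against 0.58.

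**Figure D2:**
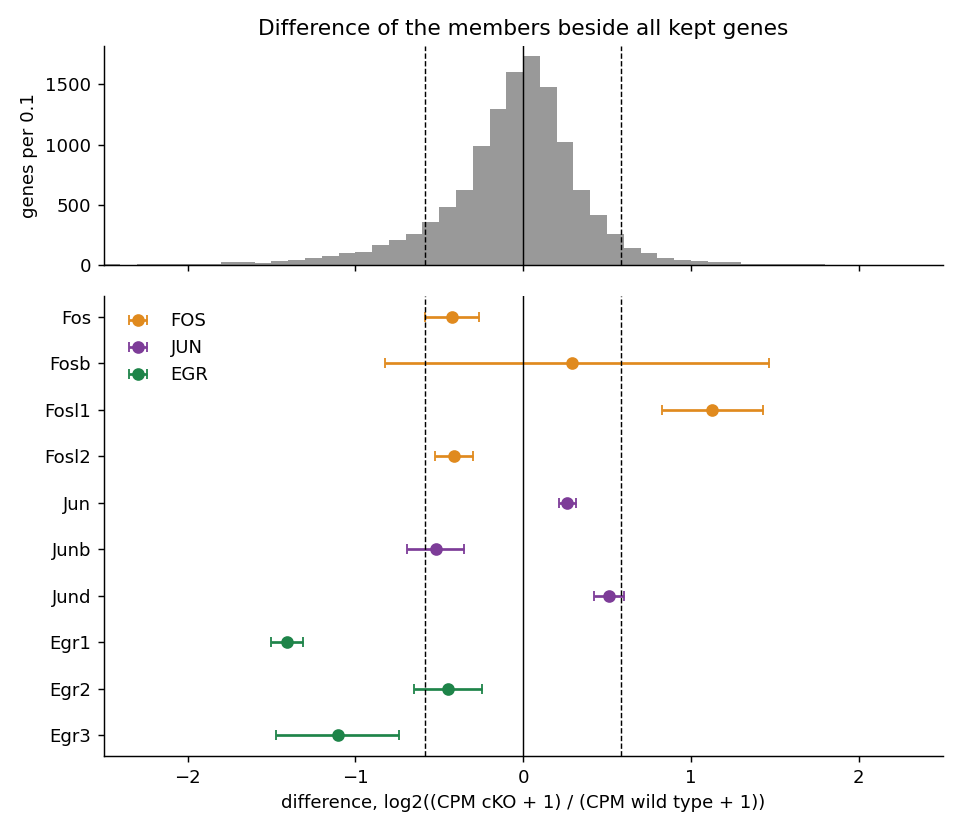
Top, number of kept genes in each 0.1 step of the difference, log2((CPM cKO + 1)/(CPM wild type + 1)), with 47 genes beyond 2.5 in size not shown. Bottom, the 10 members on the same axis, with the counting interval of the CPM ratio placed around each value; dashed lines mark 1.5-fold. Egr1 and Egr3 lie left of the lower line, Fosl1 right of the upper line, and the others between them.

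The FOS subfamily shifted in make-up more than in amount. Fos, the rapidly induced member that gives the family its name, had 545 reads in the cKO library (28.8 CPM) and 735 in the wild-type library (39.0 CPM). It was lower in the cKO library by 1.35-fold (1.21 to 1.52), a size that 15.3% of kept genes reached in the same direction. Fosl2, which encodes FRA-2, a FOS protein without the strong activation domain of Fos, had 1096 reads against 1460 (58.0 and 77.5 CPM). Its fold was almost that of Fos, at 1.34 lower (1.24 to 1.45).

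Fosl1 went the other way. It encodes FRA-1, which also lacks the strong activation domain and accumulates under lasting ERK signalling. Fosl1 had 311 reads in the cKO library (16.4 CPM) and 132 in the wild-type library (7.01 CPM). It was 2.35-fold higher in the cKO library (1.91 to 2.90), and 0.919% of kept genes were at least as far in that direction. Relative to Fos, Fosl1 was 3.18 times as high in the cKO library (2.51 to 4.04), and relative to Fosl2 3.14 times (2.51 to 3.93). The Fosl1 locus (chromosome 19, 5447698 to 5455938) overlaps Ccdc85b, and the deposited wild-type count of Fosl1 was the 1 member value that was not whole, at 132.44. No strand setting of the counting is stated, so reads of these genes may not be fully separable. Ccdc85b had 1426 reads against 1406 (ratio 1.01, 0.938 to 1.09), so it showed no such difference.

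Fosb, which is strongly induced in stimulated neurons, was close to the limit of detection, with 19 reads in the cKO library and 12 in the wild-type library. The ratio of 1.58 had an interval from 0.727 to 3.56, so a difference was not detectable at this depth. Summed over the subfamily, FOS genes had 1971 reads against 2339 and were 1.19-fold lower in the cKO library (1.12 to 1.27). Without Fosl1 they were 1.33-fold lower (1.25 to 1.42).

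The JUN subfamily was higher as a sum, with 9457 reads in the cKO library and 7793 in the wild-type library (ratio 1.21, 1.17 to 1.25). Jun, which can bind DNA as a homodimer and carries most AP-1 activity in many cells, had 6419 reads against 5320 (339 and 282 CPM). It was higher in the cKO library by a ratio of 1.202 (1.16 to 1.25), a narrow interval because the gene was deeply read. Jund, the member expressed most steadily in resting cells, had 2560 reads against 1781 (135 and 94.5 CPM). It was 1.43-fold higher (1.35 to 1.52), and 5.79% of kept genes were at least as far in that direction. Jund has the most GC-rich transcript of the members (67.1%), and with the trend of the difference on GC content removed it passed the threshold of 1.5-fold, at 0.65 on the log2 scale.

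Junb, an inducible member and a weaker activator than Jun, was lower. It had 478 reads in the cKO library (25.3 CPM) and 692 in the wild-type library (36.7 CPM), a fold of 1.45 (1.29 to 1.64). Jund relative to Junb was 2.08 times as high in the cKO library (1.82 to 2.38), and Jun relative to Junb 1.75 times (1.54 to 1.98). Junb thus went with Fos, at a nearly equal fold, and apart from the other JUN genes. JUN reads relative to FOS reads were 1.44 times as high in the cKO library (1.35 to 1.54).

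All EGR genes were lower in the cKO library. Egr1, the most widely induced of the family, had 1261 reads in the cKO library (66.7 CPM) and 3361 in the wild-type library (178 CPM). It was 2.68-fold lower (2.51 to 2.86), and 201 of the 12618 kept genes, 1.59%, were at least as far in that direction. Egr3, known for its part in muscle spindles and lymphocytes and often induced after Egr1, had 90 reads against 214 (4.76 and 11.4 CPM). Its fold of 2.39 (1.86 to 3.09) was reached by 3.02% of kept genes. Egr3 relative to Egr1 gave 1.12 (0.859 to 1.45), so their folds were not distinguishable at this depth.

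Egr2, which patterns the hindbrain and drives myelination in Schwann cells, differed less. It had 344 reads in the cKO library (18.2 CPM) and 474 in the wild-type library (25.2 CPM), a fold of 1.38 lower (1.20 to 1.59). Relative to Egr1 it was 1.93 times as high in the cKO library (1.65 to 2.26), and relative to Egr3 1.73 times (1.29 to 2.32). The fold of Egr2 was thus close to those of Fos, Fosl2 and Junb. Fos relative to Egr1 was 1.98 times as high in the cKO library (1.73 to 2.25), although both were lower.

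Levels of the members were compared with one another per transcript length, by the TPM values that the authors deposited, with intervals from the counting error of the reads. Jun was the highest of the 10 genes in both libraries, at 191.73 TPM (cKO) and 158.96 TPM (wild type). Jund came next in the cKO library, at 85.65 TPM ahead of Egr1 at 39.23. In the wild-type library that order was the reverse, with Egr1 at 104.61 TPM ahead of Jund at 59.63. None of the intervals of these neighbours overlapped.

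Junb and Fos followed in both libraries and could not be ordered. Junb had 26.82 TPM in the cKO library (24.5 to 29.3) and Fos 26.01 (23.9 to 28.3). In the wild-type library Junb had 38.94 TPM (36.1 to 42.0) and Fos 35.16 (32.7 to 37.8). Fosl1 and Fosl2 also overlapped in the cKO library, at 19.13 TPM (17.1 to 21.4) and 16.97 TPM (15.98 to 18.0). In the wild-type library they stood apart, Fosl2 at 22.58 TPM and Fosl1 at 8.18, with Egr2 between them at 15.41. Egr2 had 11.13 TPM in the cKO library, and Egr3 and Fosb were the lowest in both libraries, with Egr3 at 2.09 and 5.07 TPM and Fosb at 0.47 and 0.30.

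By summed TPM, Fosl1 made up 30.6% of the FOS subfamily in the cKO library and 12.4% in the wild-type library. Fos made up 41.6% and 53.1%, and Fosl2 27.1% and 34.1%. Within the JUN subfamily, Jun kept nearly the same share (63.0% and 61.7%), Jund had 28.2% and 23.2%, and Junb 8.82% and 15.1%. Egr1 made up 74.8% of EGR TPM in the cKO library and 83.6% in the wild-type library, and Egr2 21.2% and 12.3%. AP-1 TPM was 6.99 times EGR TPM in the cKO library and 2.59 times in the wild-type library. JUN TPM was 4.86 and 3.89 times FOS TPM. The FOS total was 62.58 TPM in the cKO library and 66.22 TPM in the wild-type library. Both differences were smaller than by summed reads, in which long transcripts such as Fosl2 weigh more. The length that the deposited values imply for a member, the count per FPKM, was nearly the same in both libraries once the shift common to all genes was removed (cKO over wild type from 0.975 for Fosb to 1.02 for Egr3).

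**Figure D3:**
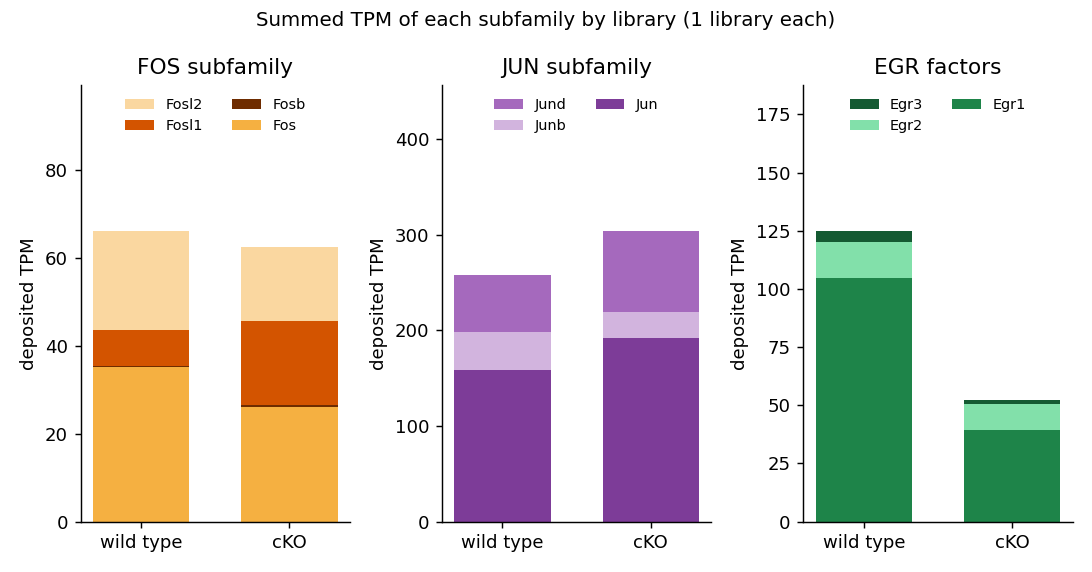
Deposited TPM summed over the FOS, JUN and EGR genes, stacked by gene, in the wild-type and the cKO library (1 library each, no error shown; each panel has its own axis, starting at 0). The FOS total is similar in both while its Fosl1 part is larger in the cKO library, the JUN total is higher there, and the EGR total is lower.

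The genes that switch on AP-1 and EGR lay mostly within 1.5-fold, as did all kept genes, of which 4.22% were higher and 10.2% lower. These are RNA levels, and the activity of the encoded proteins was not measured. Of 14 SRF, TCF and CREB activators 1 was at least 1.5-fold higher (7.14%) and 0 lower (median 0.12 on the log2 scale). That gene was Crem, a relative of CREB that includes inducible repressor forms, with 390 reads against 250 (ratio 1.55, 1.32 to 1.83). Srf had 737 reads against 770, and Creb1 1712 against 1329, both within 1.5-fold. Of 28 kept members of the MAP kinase cascade 2 were higher and 2 lower, 7.14% in each direction (median 0.06). Rps6ka3, an ERK-activated kinase, was 1.67-fold higher (1.58 to 1.76) and the p38 gene Mapk12 1.62-fold higher (1.38 to 1.92). Map3k1, an upstream kinase of the JNK branch, was 2.17-fold lower (1.998 to 2.37) and Map2k6, which activates p38, 1.62-fold lower (1.38 to 1.92).

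Feedback genes of the same kinases went both ways. Of 17 DUSP and SPRY genes 3 (17.6%) were higher and 2 (11.8%) lower, and the median was 0.13. The higher ones were the MAP kinase phosphatase genes Dusp16, which acts on JNK, at 1.76-fold (1.62 to 1.91), Dusp1 at 1.73-fold (1.46 to 2.05) and Dusp10 at 1.69-fold (1.49 to 1.92). Spry3 was 2.03-fold lower (1.63 to 2.54), and Dusp9, the other lower one, had 12 reads against 29. The count of lower genes was unstable: it moved under 6 of 11 alternative ways of processing, to as few as 0. That of higher genes moved under 1. Dusp6, the ERK phosphatase, had 2184 reads against 2799 and lay within 1.5-fold.

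Partners and co-regulators of the members also lay mostly within 1.5-fold. Of 11 kept bZIP proteins that can pair with AP-1 members 1 was higher (9.09%) and 0 lower (median 0.07). That gene was Atf3, a stress-induced factor, with 311 reads against 181. Of 5 kept EGR relatives and co-regulators 0 were 1.5-fold apart (median 0.20). The fourth family member, Egr4, had 81 reads against 111, lower like the other EGR genes but within 1.5-fold. Nab2, a corepressor that EGR proteins themselves induce, had 1791 reads against 1820, and its relative Nab1 1481 against 1186.

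Other immediate early genes lay on both sides of their wild-type levels. Of 46 genes 14 were at least 1.5-fold higher (30.4%) and 7 lower (15.2%) in the cKO library (median 0.16), beside 4.22% and 10.2% of all kept genes. Gem, a small GTP-binding protein gene, had 265 reads against 67 and was 3.94-fold higher (3.003 to 5.23). Ptgs2, the inducible cyclooxygenase, had 292 against 83 and was 3.504-fold higher (2.74 to 4.53). Nr4a1, an orphan nuclear receptor often induced together with Egr1, had 238 against 526 and was 2.22-fold lower (1.900 to 2.60). Bhlhe40 and Klf10, both transcriptional repressors, were 1.84-fold (1.75 to 1.93) and 1.82-fold lower (1.71 to 1.94). Myc, a further growth factor response gene, had 2577 against 2588 reads. Immediate early genes thus did not differ in 1 direction. Their list was chosen with earlier results of these data known, so its shares may reflect that choice.

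Known targets were apart in both directions. Of 27 kept genes known as AP-1 targets, Fosl1 among them, 13 (48.1%) were higher and 6 (22.2%) lower, and the median was 0.50, beside the 4.22% and 10.2% of all kept genes. Lgals1, which encodes galectin-1, was 3.41-fold higher (3.27 to 3.56), Areg, an EGF receptor ligand, 4.66-fold (3.14 to 7.11), and the matrix gene Tnc 3.29-fold (3.23 to 3.35). S100a6 was 7.47-fold lower (4.904 to 11.8) and Vegfa, which hypoxia also induces, 3.11-fold lower (2.97 to 3.26). Of 25 kept genes known as EGR targets 12% were higher (3 genes) and 20% lower (5 genes), and the median was 0.04. Farthest down among these were Vegfa, which is on both target lists, and Apoe, at 2.24-fold lower (2.20 to 2.27). Mmp14, also on both lists, was 1.99-fold lower (1.704 to 2.32). Arc, a synaptic immediate early gene, had 281 reads against 521 and was 1.86-fold lower (1.61 to 2.16). Pdgfa, a growth factor of the oligodendrocyte lineage, was 1.88-fold higher (1.66 to 2.13), and Gdf15 1.64-fold higher (1.37 to 1.97). Lists share genes, so these counts are not independent. The lists were also chosen with earlier results of these data known, so their shares of genes apart may reflect that choice.

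**Figure D4:**
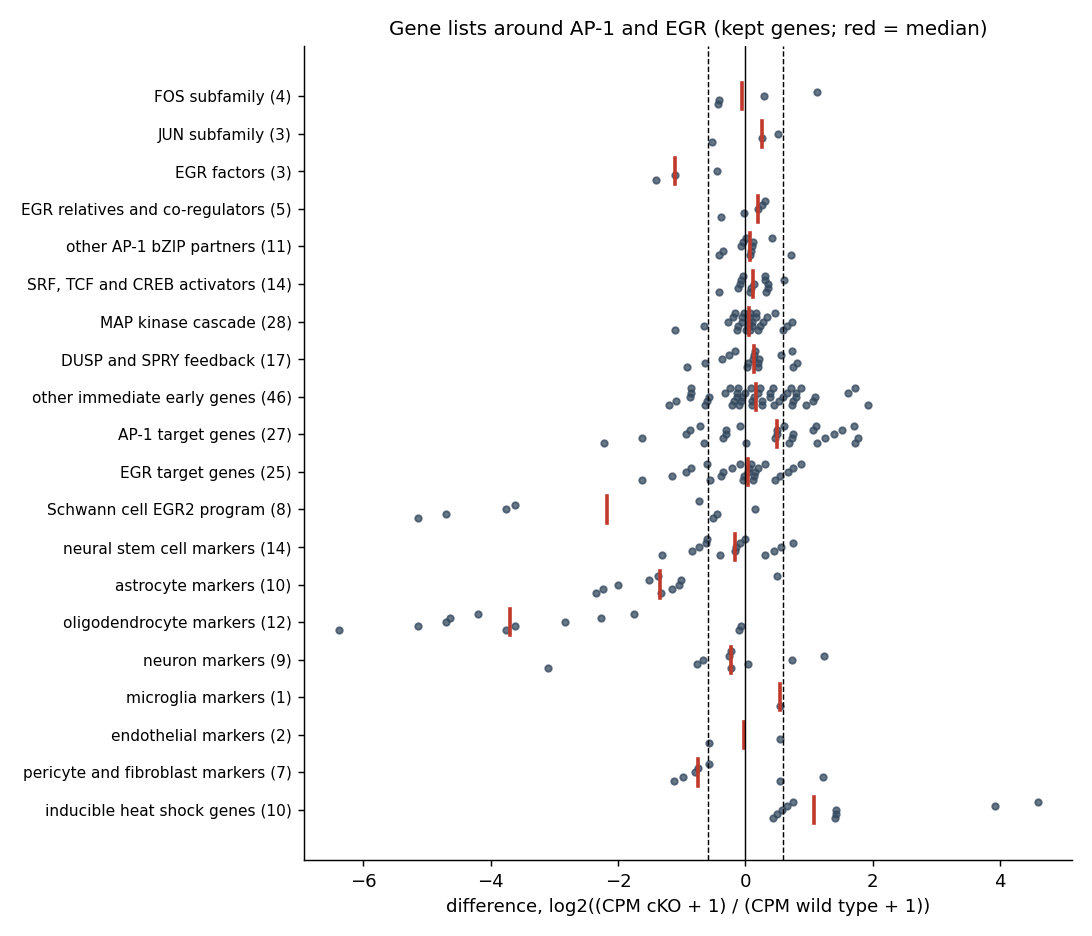
Difference of each kept gene, log2((CPM cKO + 1)/(CPM wild type + 1)), in the 3 member groups and 17 other lists (number of kept genes in brackets); red bars mark medians and dashed lines 1.5-fold. The regulator lists lie near 0, the immediate early and target lists spread to both sides, and the glial marker lists lie far to the left.

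Markers of other cells moved in the same comparison. Of 12 kept oligodendrocyte lineage markers 10 were at least 1.5-fold lower in the cKO library and 0 higher, with a summed level of 2323 CPM (cKO) against 3716 CPM (wild type). Olig1 and Olig2, whose reads enter those sums, were the other 2 and lay within 1.5-fold. Of 10 astrocyte markers 9 were lower and 0 higher, summed at 1608 against 3472 CPM. Of 8 kept genes of the Schwann cell program linked to EGR2, whether as its targets or not, 5 were lower and 0 higher. Their median of -2.17 was unstable, at -0.62 without the filter and -3.69 with a filter of 5 CPM, and the lower ones include Mbp, Sox10 and Mag, which are also oligodendrocyte markers. Of 9 kept neuron markers 2 were higher and 3 lower. No marker of these 3 cell types was at 0 in either library. Heat shock genes were higher, 7 of 10 by at least 1.5-fold. The near-identical HSP70 genes Hspa1b and Hspa1a, which can share reads, had ratios of 30.4 (23.9 to 39.3) and 17.4 (14.4 to 21.2), Hspb1 one of 3.94 (2.52 to 6.39) and Hsph1 one of 2.704 (2.59 to 2.82). The part of these differences in the levels of the EGR and AP-1 genes was not tested, and in bulk RNA fewer cells of a type cannot be told apart from less RNA per cell.

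Markers of non-neural cells were read as well. Only 1 of the 11 microglia markers was kept, Cd68, with 91 reads against 56, and their summed level was 5.13 CPM (cKO) and 3.34 CPM (wild type). Of the other microglia genes listed, P2ry12 had 4 reads (cKO) and 5 (wild type), and Cx3cr1, Csf1r, Tmem119 and Itgam at most 1 in either library. Endothelial markers summed to 8.41 and 9.29 CPM. Pericyte and fibroblast markers summed to 89.6 and 79.1 CPM, with 1 of 7 kept genes higher (Prrx1) and 4 lower. The part of these cells in the levels of the members was not tested.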

How the data were processed

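Total RNA of mouse neural stem cells in suspension culture was sequenced in 1 wild-type and 1 Hikeshi cKO library, grouped by the genotype labels. The authors deposited 1 table with, per the file headers, an estimated read count, FPKM, TPM and a normalized read count (a signal) for each gene and library. The submitters' processing notes list the build GRCm38.p6. Aligner, counter, annotation and strand setting were not given in the sources used here. About 90% of the deposited estimated counts were whole (89.8% in the cKO and 90.0% in the wild-type library), and all were rounded to whole reads.

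Reads were divided by column totals to give CPM. Genes at 1 CPM or more in at least 1 library were kept. Differences are log2 ratios of CPM with 1 CPM added, which understates changes of low genes, while folds are plain CPM ratios. Intervals at 95% are exact: Clopper-Pearson for folds, conditional for ratios of folds, Poisson for levels (scipy 1.17.1). No p-value can be had from 1 library per group. The interval calculation was run on simulated Poisson counts, which checks the code only. Those counts hold no PCR copies and no spread between replicate libraries. Promoters came from a RefSeq table of GRCm38.p6. Alternatives were TMM factors (edgeR 4.0.16), size factors (DESeq2 1.42.0), the authors' normalized count, TPM, FPKM, other added values, filters and thresholds, removal of the GC trend, and sums over fewer members. The value without each member in turn was added after seeing the data.

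The members and all gene lists were chosen with earlier results of these data known. Named genes are the 10 members, Hikeshi, up to 4 genes per direction and list that were 1.5-fold apart with at least 50 reads in the higher library, and the most abundant marker of each cell type. Other genes were named after their values were seen. Not every gene under this rule is reported here.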

Additional observations from a re-analysis of the deposited data

How the results depend on the processing

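No paired analysis was possible because each group has 1 library, and for the same reason no library could be left out. Every member kept its direction under each alternative that gave it a value (97 values, of which 95 lay inside the counting interval). The exceptions were Jun and Jund, which moved to 0.34 and 0.65 on the log2 scale with the GC trend removed, so that 2 members were then at least 1.5-fold higher. The cause was not tested. Egr1 and Egr3 were the 2 lower members counted under all 11 alternatives. AP-1 over EGR moved from 2.69 to 1.65 without the most abundant gene of each class, to 2.15 with the mean log2 difference, to 2.49, 1.79 and 2.98 when Jun, Egr1 or Egr2 was left out, because fewer or reweighted members enter, and to between 2.54 and 2.85 without each of the others. Over all genes the counts of 532 higher and 1290 lower became 304 and 674 with 5 CPM added, and 158 and 486 at 2-fold, as stricter rules. Of 372 counts within lists 40 moved by over 1.5 times, and of 169 list medians 10 left their interval. Fosb was not kept with TPM, FPKM or a filter of 5 CPM. Depth limits Fosb, with 19 and 12 reads, and Egr3 most.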
